A study of Bos taurus with 15 samples.

Results

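Adipose tissue sampled at -4 wkpp (weeks peripartum, a month before the first calving) was compared with adipose tissue of cows in severe negative energy balance (SNEB) at 1 wkpp. The comparison took 6 of the 15 libraries of the series, 3 from each group, and its members were all 13896 gene rows of the corresponding table, the same rows as in the whole series. In each library, reads were counted once on exons and once on the whole gene, introns included. All cows were primiparous Prim Holstein, and the fat was subcutaneous fat of the dewlap, taken after a fast. The cows at -4 wkpp had not yet received an experimental diet. The SNEB cows had received a low energy (LE) diet from that time on and were sampled a week after calving, and the libraries came from cows chosen among those with the more extreme negative energy balance. Calving, the onset of lactation and the diet all fell between these samplings, so their shares in a difference cannot be told apart here. The study took biopsies of each cow at all 3 times, so libraries of both groups may come from the same cows. The libraries are not tied to cows in the sources used here, and the groups were compared as independent samples. Within a group the libraries are called a, b and c, in the order of their exonic size factors, and values of 3 libraries are given in that order. In pieces of whole tissue, fewer cells of a type and less RNA per cell cannot be told apart.

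White adipose tissue stores energy as triacylglycerol in lipid droplets. In ruminants the adipocyte is a main site of fatty acid synthesis, and acetate from the rumen is its main carbon source: acetate is activated to acetyl-CoA, carboxylated to malonyl-CoA, elongated to palmitate, and then desaturated and esterified to glycerol 3-phosphate. Around calving, dairy cows pass from storing fat to releasing it, since the energy drawn into milk exceeds the energy eaten. Lipolysis then frees fatty acids and glycerol, and oxidation of fatty acids is favoured where glucose is scarce.

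The 3 libraries at -4 wkpp held 8273138 to 14344675 exonic reads, and those of SNEB at 1 wkpp 11013666 to 13853887, with 19989463 to 29163499 reads on whole genes over all 6. The exonic share of the whole gene reads was 41.4 to 55.3% at -4 wkpp and 40.8 to 51.9% at 1 wkpp. A library of each group stood apart from the others of its group. SNEB 1 wkpp b was closer to -4 wkpp b (r = 0.967 across the log2 values of genes, which are not independent replicates) than to SNEB 1 wkpp a (r = 0.946) or c (r = 0.941), which were at r = 0.970 with each other. Among all 15 libraries its nearest was SNEB 16 wkpp c, at r = 0.978. The library -4 wkpp b was at r = 0.953 and 0.956 with -4 wkpp a and c, which were at r = 0.979 with each other, and so was itself closer to SNEB 1 wkpp b than to its own group. Main results are therefore also given without SNEB 1 wkpp b, and the counts of genes without either. SNEB 1 wkpp b was singled out on these same data for lying near -4 wkpp b. Leaving it out tends to widen the differences and narrow the spread in SNEB, so adjusted p without it are descriptive only. The library -4 wkpp c was the shallowest of the 6 and held reads of 576 genes seen in none of the other 5, against 18 to 29 such genes in each other library.

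Several central genes of lipid synthesis were higher before calving. Of 10597 genes tested in both analyses, 10 were differentially expressed genes (DEGs), with an adjusted p below 0.01 and the same direction in the exon and the whole gene analysis (0.0944% of the genes tested), and all 10 were higher at -4 wkpp. They were *FASN*, *ACACA*, *ACSS2*, *GPAM*, *PCK1*, *GPD1*, *CIDEA*, *BDH1*, *GSTT2* and *KRT85*. Their adjusted p (limma with trend, Benjamini-Hochberg over all genes) was 0.00117 to 0.00181 on exons and 0.00442 to 0.00999 on whole genes. Of the 10, *BDH1* and *KRT85* reached the lowest mean count needed for the test through their reads at -4 wkpp, so the filter set their direction. No gene passed as lower at -4 wkpp (0 genes, 0%), and with voom weights in limma there was none either, while 1606 genes of both directions had an unadjusted p below 0.05 on exons. With the threshold at 0.05 in both analyses 104 genes passed (0.981%), 88 of them higher (0.83%) and 16 lower at -4 wkpp (0.151%). The exon analysis alone called 74 genes at 0.01 (0.69%) and the whole gene analysis alone 10 (0.0864%). Without SNEB 1 wkpp b the number of DEGs was 183, of which 141 were higher (1.33%) and 42 lower (0.397%) at -4 wkpp, and these included all 10 DEGs. Without SNEB 1 wkpp a or c, or without -4 wkpp a or c, there was no DEG, and without -4 wkpp b there were 6, 5 higher and 1 lower at -4 wkpp, of which 4 were among the 10 DEGs. At 0.05, 126 genes passed without -4 wkpp b, 79 of them among the 104. Without -4 wkpp a 8 genes passed 0.05 and without -4 wkpp c 32. Without SNEB 1 wkpp a, b or c the counts at 0.05 were 9, 492 and 13. In 74 of the 104 genes (71.2%) SNEB 1 wkpp b was the SNEB library nearest to the mean at -4 wkpp, against 860 of the 1261 genes whose groups did not overlap (68.2%). A log2 fold change below is -4 wkpp over SNEB 1 wkpp on exonic reads, so that positive values are higher at -4 wkpp, and its median over all genes tested was -0.0246.

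**Figure D1:**
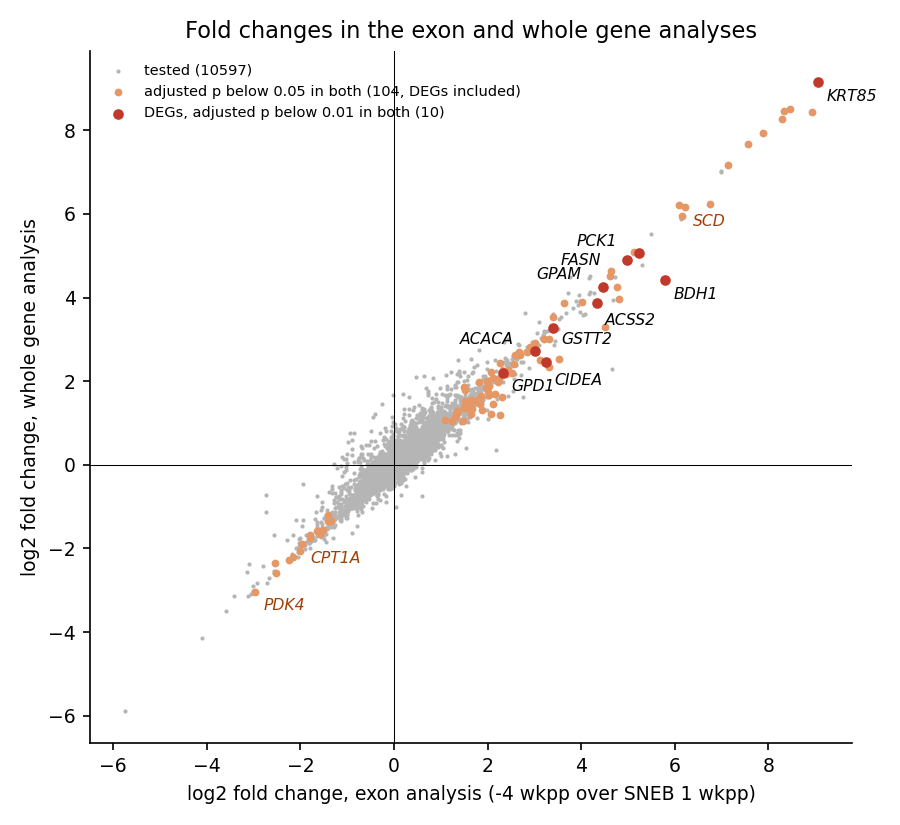
Log2 fold change of each of the 10597 genes tested, -4 wkpp over SNEB 1 wkpp, in the exon analysis (horizontal axis) and the whole gene analysis (vertical axis). The 10 DEGs are labelled in black and all lie above 0 on both axes, from *GPD1* at 2.33 to *KRT85* at a fitted 9.06 on exons (bound 6.71, since its SNEB libraries are at 0), while *SCD*, *PDK4* and *CPT1A*, labelled in brown, passed only the threshold of 0.05.

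Central enzymes of fatty acid synthesis were much higher at -4 wkpp. Of 29 genes listed for the pathway and its supply of acetyl-CoA and NADPH, 25 were tested. Of these, 3 were DEGs (against 0.0944% of all genes) and 11 passed 0.05, all of them higher at -4 wkpp (0.83% of all genes). Without SNEB 1 wkpp b 9 passed 0.01, all higher at -4 wkpp (1.33% of all genes). The median log2 fold change of the 25 was 1.24, against -0.0246 over all genes, and in 17 of them the groups did not overlap in either analysis with the higher values at -4 wkpp, against 6.41% of all genes. No listed gene had non-overlapping groups in the other direction.

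*FASN*, the fatty acid synthase, had 89189, 68738 and 79803 normalized exonic reads at -4 wkpp and 1750.5, 5114 and 1753 in SNEB at 1 wkpp. Its highest SNEB library, b, was still far below its lowest library at -4 wkpp. The log2 fold change was 4.98 ± 0.40 (SE, n = 3 per group), a 31.5-fold difference (limma adjusted p = 0.00171 on exons and 0.00442 on whole genes). *ACACA*, the acetyl-CoA carboxylase that makes malonyl-CoA, had 35309.6, 18471 and 29244 reads at -4 wkpp and 2938, 3650.1 and 3333 at 1 wkpp. The SNEB libraries were close to each other here, b included, and the fold change was 3.02 ± 0.25 on the log2 scale (limma adjusted p = 0.00171 and 0.00442). *ACSS2*, which activates acetate in the cytosol, fell from 22506, 14782 and 17691 reads to 609.5, 1843 and 646, a log2 fold change of 4.33 ± 0.40 (limma adjusted p = 0.00181 and 0.00677). *ACSS1*, its mitochondrial counterpart, was not tested on whole genes and had 763, 614 and 981 exonic reads at -4 wkpp and 1079, 963 and 1208 at 1 wkpp, with overlapping groups.

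*SCD*, the stearoyl-CoA desaturase, was among the most abundant genes of the tissue at -4 wkpp, with 400309, 332013 and 369958 normalized exonic reads, and had 1027, 27344 and 4301 in SNEB at 1 wkpp. The SNEB libraries differed among themselves far more than those before calving, and b was the highest. Its log2 fold change of 6.21 ± 0.96 passed 0.05 in both analyses but not 0.01 (limma adjusted p = 0.0154 on exons and 0.0358 on whole genes), and without SNEB 1 wkpp b it was 7.44 (adjusted p = 0.000127 and 0.000678). *THRSP*, a nuclear protein that follows lipogenesis, showed the same spread, with 17484, 7359.9 and 15480.5 reads at -4 wkpp and 222, 1285 and 482 at 1 wkpp, and passed 0.05 at a log2 fold change of 4.61 ± 0.58. *ELOVL6*, which elongates palmitate, had 11026, 5442 and 8909 reads at -4 wkpp and 737, 1365 and 821 at 1 wkpp, with no overlap, and also passed 0.05.

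Others of the pathway that passed 0.05 had smaller differences. They were *ACLY*, the citrate lyase, at a log2 fold change of 1.77 ± 0.27, *SLC25A1*, the mitochondrial citrate carrier, at 2.34 ± 0.20, the elongation genes *ELOVL5* at 2.06 ± 0.25 and *HSD17B12* at 2.26 ± 0.25, and *DBI*, which binds acyl-CoA, at 1.97 ± 0.27. Enzymes that produce NADPH did not pass 0.05. *ME1* was at 1.13 ± 0.28 (limma adjusted p = 0.0843 and 0.153), *IDH1* at 1.12 ± 0.28 (adjusted p = 0.0866 and 0.246) and *PGD* at 1.01 ± 0.33 (adjusted p = 0.19 and 0.428). The groups did not overlap on exons in any of these 3 genes. *PGD* passed 0.01 without SNEB 1 wkpp b, where it had 2898 reads against 1252 and 1108 in the other SNEB libraries.

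**Figure D2:**
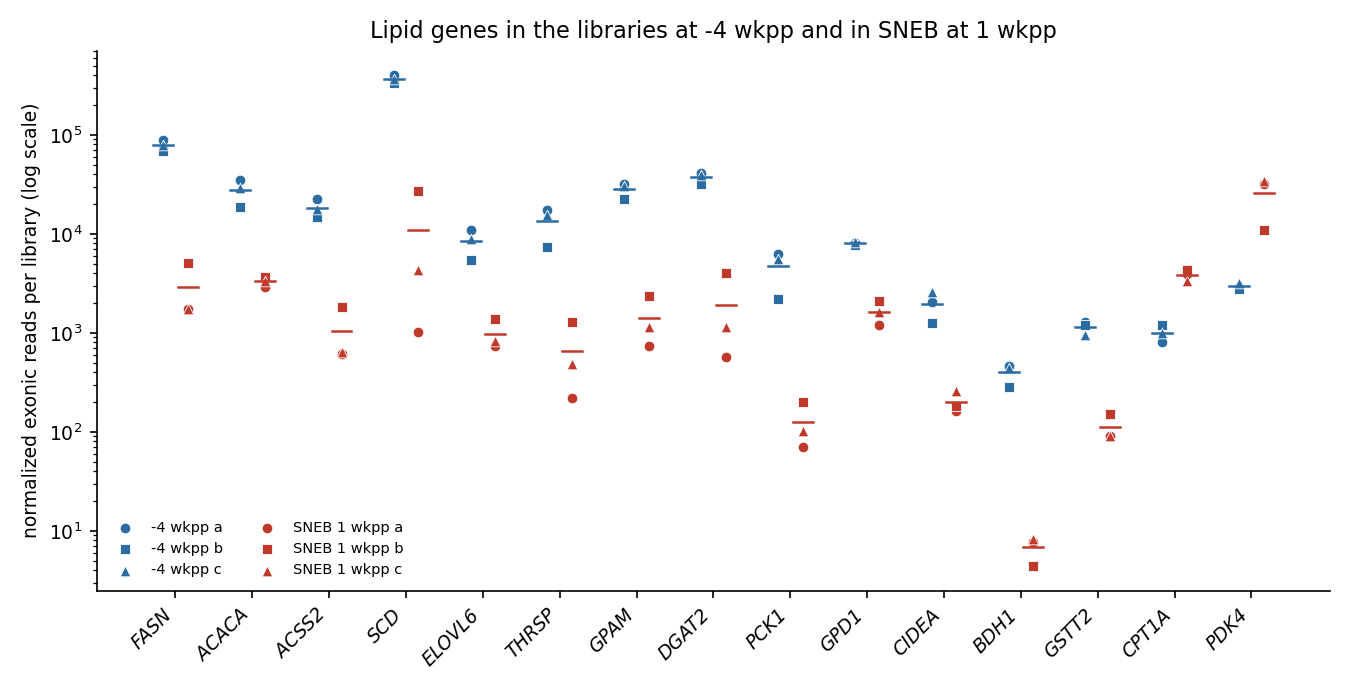
Normalized exonic reads (log axis) of 15 genes in each of the 6 libraries, with -4 wkpp in blue and SNEB 1 wkpp in red, symbols for libraries a, b and c, and bars at the group means. *BDH1* lies at 287 to 466 reads before calving and at 4.4 to 8.22 after it, *CPT1A* and *PDK4* have the reverse order, and in most genes of the synthesis pathway SNEB 1 wkpp b (red square) is the SNEB library nearest to the blue points.

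Several genes that supply and acylate glycerol 3-phosphate were higher at -4 wkpp too. Of 23 listed genes of triacylglycerol assembly, 20 were tested, 3 were DEGs (*GPAM*, *PCK1* and *GPD1*, against 0.0944% of all genes) and 6 passed 0.05, all higher at -4 wkpp (0.83% of all genes). The median log2 fold change of the 20 was 0.496, and 11 of them were above 0. *GPAM*, the mitochondrial acyltransferase of the first step, had 31729, 22389 and 30732 reads at -4 wkpp and 731, 2360.1 and 1147 in SNEB at 1 wkpp, a 22.3-fold difference (4.48 ± 0.38 on the log2 scale, limma adjusted p = 0.00171 and 0.00442). *PCK1*, the cytosolic phosphoenolpyruvate carboxykinase of glyceroneogenesis, had 6225, 2218 and 5601 reads at -4 wkpp and 69.4, 202 and 103 at 1 wkpp. Its lowest library before calving, b, was still more than 10 times above the highest SNEB library, and the log2 fold change was 5.23 ± 0.47 (limma adjusted p = 0.00177 and 0.00461). *GPD1*, which makes glycerol 3-phosphate from a glycolytic intermediate, varied least before calving, at 8102, 7771 and 8268 reads, and had 1201, 2108 and 1608 at 1 wkpp, a log2 fold change of 2.33 ± 0.21.

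*DGAT2*, which attaches the last fatty acid, passed 0.05 with one of the larger differences (4.77 ± 0.59), from 41355, 31973 and 39701 reads to 567, 3989.8 and 1146. *DGAT1*, which catalyses the same step, had 575, 635 and 777 reads at -4 wkpp and 709.8, 664 and 1201 at 1 wkpp, with overlapping groups and a log2 fold change of -0.33 ± 0.25. *AGPAT2* (2.39 ± 0.27), of the second acylation, and *ACSL1* (2.31 ± 0.25), which activates long chain fatty acids, passed 0.05 as well. *LPIN1*, the phosphatidate phosphatase, did not pass and separated the SNEB libraries from each other: it had 1787, 1390.0 and 1506 reads at -4 wkpp but 7217, 965 and 8071 at 1 wkpp. SNEB 1 wkpp b was thus below all the libraries before calving and the other SNEB libraries were above them. Without b the log2 fold change of *LPIN1* was -2.30 and it passed 0.01 (limma adjusted p = 0.000231 and 0.000743). *PCK2*, the mitochondrial isoenzyme of *PCK1*, did not pass 0.05 at 2.20 ± 0.48 and also passed 0.01 without b.

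Among 17 regulators of lipogenesis, 13 were tested, none was a DEG and 2 passed 0.05, both higher at -4 wkpp (0.83% of all genes). Without SNEB 1 wkpp b *INSIG1* passed 0.01 as higher and *LPIN1*, also on this list, as lower at -4 wkpp. *INSIG1*, a sterol-regulated protein that retains SREBP in the endoplasmic reticulum, had 3234, 1248 and 3138 reads at -4 wkpp and 216, 401 and 345 at 1 wkpp (2.91 ± 0.39 on the log2 scale). *MLXIPL*, the carbohydrate-responsive factor ChREBP, had 526, 383 and 571 reads against 165, 197 and 216 (1.34 ± 0.22). *SREBF1*, the SREBP gene of lipogenesis, had 4164, 5855 and 4307 reads against 1604, 2116 and 1979 with no overlap and missed 0.05 on whole genes only (limma adjusted p = 0.012 on exons and 0.129 on whole genes). *PPARG*, the main regulator of adipocyte identity, had 691, 629.8 and 561 exonic reads at -4 wkpp and 624, 630.1 and 539 at 1 wkpp, with overlapping groups, and was not tested on whole genes. *NR1H3*, the liver X receptor alpha, was higher in SNEB in every library, at 929, 703 and 1003 reads against 502, 554 and 480.3, and did not pass (limma adjusted p = 0.0781 and 0.132).

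The remaining metabolic DEGs were genes of ketone body metabolism, the lipid droplet and glutathione conjugation. *BDH1*, the mitochondrial hydroxybutyrate dehydrogenase, had 466, 287 and 445 exonic reads at -4 wkpp and only 7.72, 4.4 and 8.22 in SNEB at 1 wkpp, a 55.4-fold difference (5.79 ± 0.37 on the log2 scale, limma adjusted p = 0.00117 and 0.00442). The SNEB values rest on few reads, with a mean of 6.78. *BDH1* thus reached the lowest mean count needed for the test through its reads at -4 wkpp, and the filter set its direction. Of 10 listed ketone body genes 8 were tested, and *AACS*, which activates acetoacetate for lipid synthesis, passed 0.05 at 1.64 ± 0.18. *OXCT1*, the enzyme that admits ketone bodies to oxidation, was at 0.91 ± 0.17 and did not pass on whole genes (limma adjusted p = 0.0366 and 0.243). *CIDEA*, a lipid droplet protein, had 2046, 1244 and 2581 reads at -4 wkpp and 163, 182 and 256 at 1 wkpp (3.25 ± 0.29, limma adjusted p = 0.00177 and 0.00442). Its relative *CIDEC* had 12594, 11470 and 10189.6 reads against 8197, 9880.4 and 5799, a log2 fold change of 0.55 ± 0.23 that did not pass. *GSTT2*, a glutathione transferase, had 1281, 1195 and 949 reads against 90.9, 150.5 and 91.4 (3.39 ± 0.25, limma adjusted p = 0.00145 and 0.00442). The related *GSTT1* passed 0.05 at 1.68 ± 0.18, and reads of such close relatives can be split between them in counting.

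*KRT85*, a keratin of the hair shaft, was the one DEG outside metabolism. It had 400.1, 145 and 323 normalized exonic reads at -4 wkpp and no read in any SNEB library at 1 wkpp. Against a limit of 3 reads per SNEB library it was at least 105-fold higher at -4 wkpp (limma adjusted p = 0.00117 and 0.00442). Of 33 markers listed for hair follicle and keratinocytes, 29 were in the tables and 19 were tested. The 8 that passed 0.05 were *KRT85*, *KRT31*, *KRT83*, *KRT71*, *KRT25*, *KRT35*, *KRTAP11-1* and *DSG1*, higher at -4 wkpp. They were at or near 0 in every SNEB library and reached the lowest mean count needed for the test through their reads at -4 wkpp, so the filter set the direction of those tested and their number is no support for it. *KRT31* had 519, 80 and 347 reads and *KRT71* 420.4, 119 and 83.7, and both were at 0 in the SNEB libraries, which makes them at least 114-fold and at least 75.1-fold higher. In all, 14 of the 29 markers had no exonic read in any SNEB library. The summed reads of the whole list were 1539 to 4755 at -4 wkpp and 759 to 1382 at 1 wkpp, and the defining epidermal markers *KRT5* and *KRT14* were near 0, at 32.3, 14.3 and 8.81 and 18.4, 10.5 and 0 reads before calving and 0, 1.76 and 2.05 and 0, 0 and 0 after it. Most of the summed reads in SNEB came from *DSP*, which tissues other than skin also express, at 993, 1243 and 488 reads. The part of skin in this result was not tested. Hair keratins are a family of close relatives, so reads can be split among its members. *CYP17A1*, of steroid synthesis, and *TECTB*, of the tectorial membrane of the inner ear, were also among the 12 largest differences at 0.05. *CYP17A1* had 143, 89.6 and 126 reads before calving and 0, 6.16 and 1.03 after it, and *TECTB* 157, 53.4 and 145 and 0, 3.52 and 0, so that both also reached the lowest mean count needed through their reads at -4 wkpp, and the filter set their direction.

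**Figure D3:**
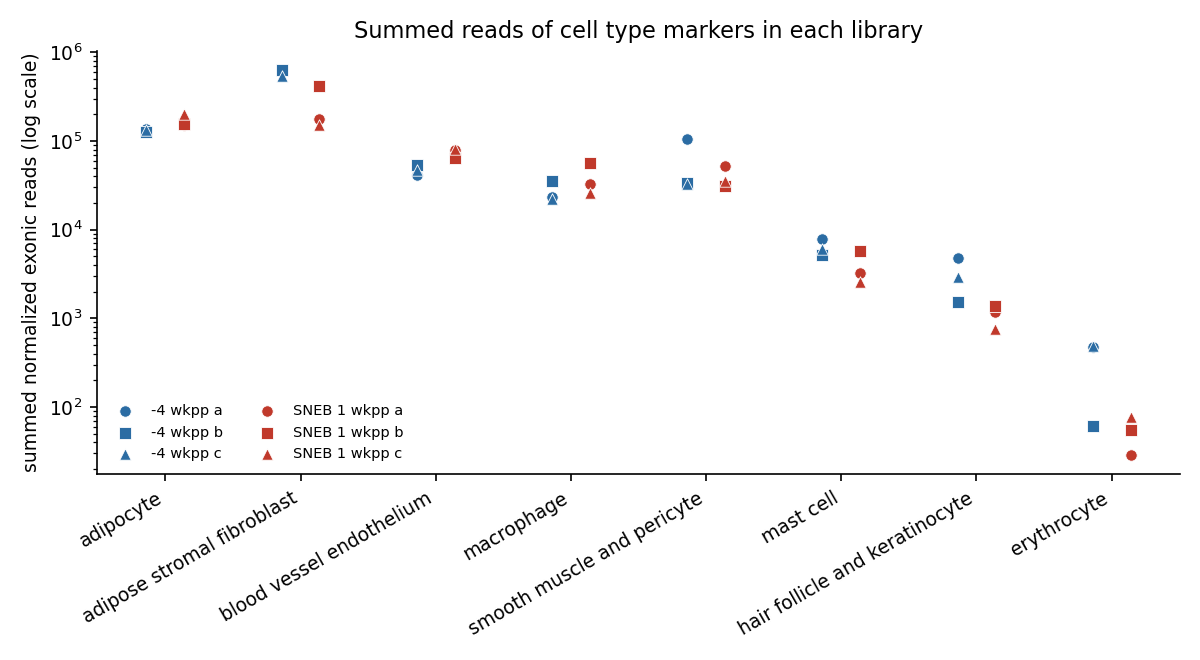
Summed normalized exonic reads (log axis) of the members of 8 cell type marker lists in each of the 6 libraries, with -4 wkpp in blue and SNEB 1 wkpp in red. Adipocyte sums lie at 127800 to 137987 before calving and 152210 to 198710 after it, while fibroblast sums (543301 to 630806 against 150055 to 418575) and hair follicle sums are higher before calving.

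The 16 genes that were lower at -4 wkpp at the threshold of 0.05, and so higher in SNEB, were led by *PDK4*. *PDK4*, the kinase that shuts off pyruvate dehydrogenase, had 2900.4, 2765 and 3165 reads at -4 wkpp and 32242, 10898 and 34184 in SNEB at 1 wkpp, with SNEB 1 wkpp b again nearest to the libraries before calving. Its log2 fold change was -2.96 ± 0.40, with an adjusted p of 0.0084 on exons and 0.0156 on whole genes (limma), and -3.50 without b, where it passed 0.01 in both (adjusted p = 3.75e-05 and 0.000232). *CPT1A*, which admits long chain fatty acids to the mitochondrion, had 809, 1198 and 989 reads against 3934, 4307 and 3367 (-1.97 ± 0.19), and the SNEB libraries were close together. *PHYH*, of peroxisomal alpha-oxidation, went from 1952, 1576 and 1595 to 6307, 5135 and 6257 reads (-1.79 ± 0.17). *UCP2*, a mitochondrial carrier, was at -1.34 ± 0.21, and *CYP4V2*, a fatty acid hydroxylase, at -1.63 ± 0.18.

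The rest of the 16 had varied functions. *ADM*, the vasodilator peptide adrenomedullin, had 1801, 2077 and 2779 reads at -4 wkpp and 16527, 6035 and 19539 at 1 wkpp (-2.52 ± 0.41). *THBS1*, a matricellular protein, had 5286, 5885 and 2923 reads against 28068, 15257 and 22283 (-2.24 ± 0.32). *GRB10*, an adaptor that dampens insulin receptor signalling, had 545, 638 and 640.4 reads against 2729, 1114 and 2998 (-1.78 ± 0.34), and SNEB 1 wkpp b lay between the libraries before calving and the other SNEB libraries. *TXNIP*, which limits glucose uptake, was at -1.51 ± 0.25, *ABCA1*, the exporter of cellular cholesterol, at -1.40 ± 0.21, and the transcription factor *KLF11* at -2.02 ± 0.26. *CD163*, the haemoglobin scavenger receptor of macrophages, had 2742, 2937 and 2374 reads against 7895, 7058 and 6365 (-1.40 ± 0.17). It was the only one of 12 macrophage markers tested to pass 0.05, and the sums of the macrophage list overlapped (21973 to 35371 against 25705 to 56525). The others were *NRIP3*, *GALNT15*, *LRRC71* and *PLXNA4*, at log2 fold changes of -2.54, -2.15, -1.62 and -1.58.

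Genes of lipolysis did not move as one. Of 24 listed, 18 were tested, *CIDEA* was a DEG, *AQP7*, the glycerol channel, passed 0.05 at 1.53 ± 0.25, and none passed as lower at -4 wkpp. The groups did not overlap in 4 members with higher and 7 with lower values at -4 wkpp (5.49% of all genes in the latter direction), and the median was -0.239. *LIPE*, the hormone-sensitive lipase, had 4833, 6613 and 5085 reads at -4 wkpp and 10917, 8893 and 12739 in SNEB (-0.98 ± 0.21, limma adjusted p = 0.0546 and 0.108). *PNPLA2*, the lipase of the first step, had 3108, 3309.8 and 2876 reads against 3852, 2549 and 3587, with overlapping groups. *ADORA1*, an antilipolytic adenosine receptor, had higher values at -4 wkpp, at 618, 619 and 546 against 82.3, 279 and 94.5 reads (2.19 ± 0.42, limma adjusted p = 0.0366 and 0.0895). *HCAR1*, the antilipolytic lactate receptor, was higher in all SNEB libraries at 393, 224 and 501 against 119.9, 151 and 101 reads and did not pass (-1.53 ± 0.32).

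In lipid uptake, none of 18 genes tested passed either threshold in both analyses. *LPL*, the lipoprotein lipase, had the largest difference, 3.21 ± 0.59, from 38847, 19734 and 38566 reads at -4 wkpp to 1869, 9722 and 2044 in SNEB (limma adjusted p = 0.0327 on exons and 0.0636 on whole genes). Without SNEB 1 wkpp b, where it was about 5 times the level of the other SNEB libraries, it was 3.98 and passed 0.01. *FABP4*, the adipocyte fatty acid binding protein, was higher in SNEB without overlap, at 58137, 74616 and 77120.4 against 28318, 36892 and 30933 reads, and did not pass (-1.12 ± 0.25).

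**Figure D4:**
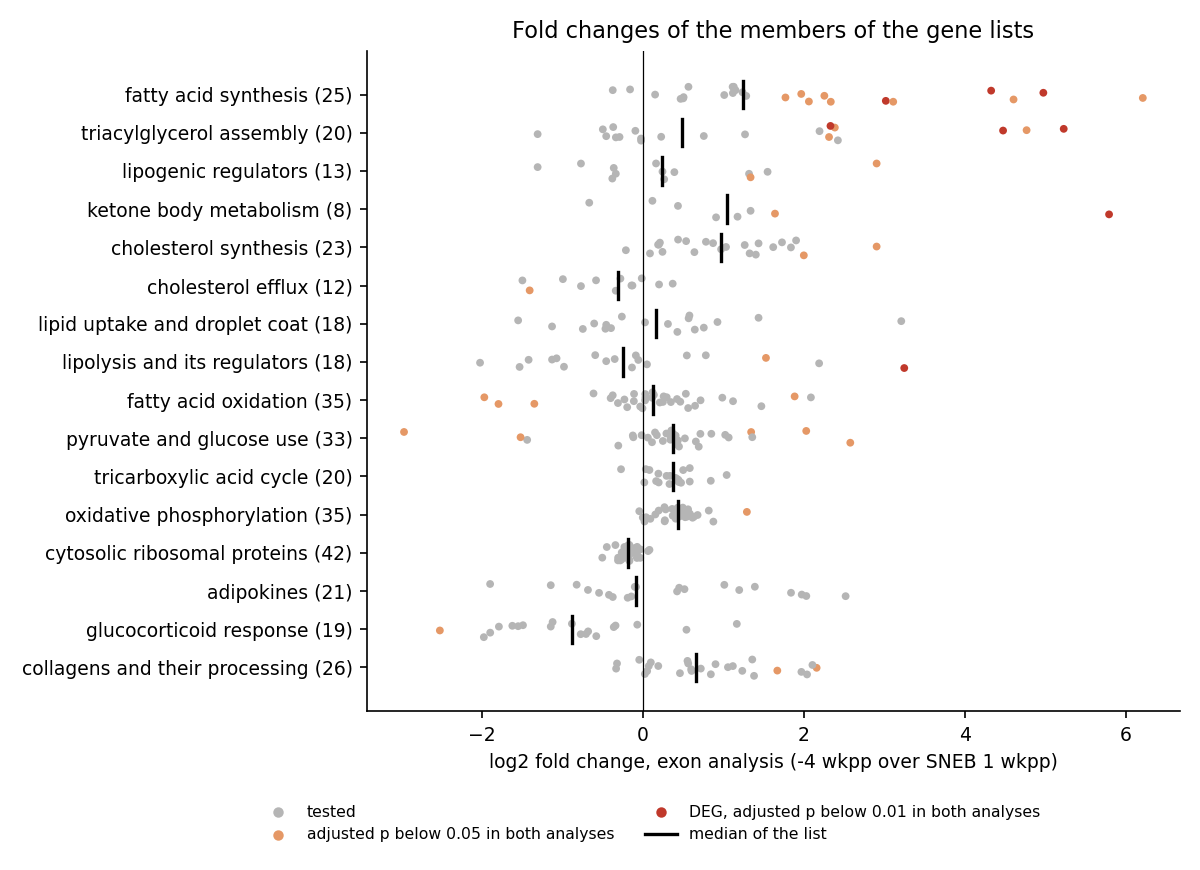
Log2 fold change (exon analysis, -4 wkpp over SNEB 1 wkpp) of each tested member of 16 gene lists, with the number tested in brackets, colours for the thresholds passed and a bar at each median. DEGs lie in fatty acid synthesis, triacylglycerol assembly, ketone body metabolism and lipolysis, and the medians run from -0.878 (glucocorticoid response) to 1.24 (fatty acid synthesis).

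Glucose use, oxidation and sterol synthesis held no DEG. Of 33 genes of pyruvate and glucose use tested, 3 were higher and 2 lower at -4 wkpp at 0.05 (0.83% and 0.151% of all genes), with a median of 0.38. *SLC2A4*, the insulin-dependent glucose transporter, had 667, 404 and 632 reads at -4 wkpp and 120.0, 146 and 141 in SNEB (2.03 ± 0.24), and the SNEB libraries were close together. *PFKFB1*, a regulator of glycolysis, was at 2.58 ± 0.49 and *LDHB* at 1.35 ± 0.23. Fatty acid oxidation was split: of 35 genes tested, *DECR1*, of unsaturated fatty acids, was higher at -4 wkpp at 0.05 (1.89 ± 0.27) and *CPT1A*, *PHYH* and *UCP2* were lower. Of all genes, 0.83% were higher and 0.151% lower at 0.05. The median of the 35 was 0.123. In cholesterol synthesis 22 of 23 tested genes were above 0, with a median of 0.975 and 12 without overlap and higher at -4 wkpp (6.41% of all genes). Of the 23, *HMGCS1*, of the first committed step (2.00 ± 0.31), and *INSIG1* passed 0.05 (0.83% of all genes). Oxidative phosphorylation (34 of 35 tested genes above 0, median 0.435) and the tricarboxylic acid cycle (19 of 20, median 0.375) had small differences in one direction, with 1 and 0 genes at 0.05, and the cytosolic ribosomal proteins were slightly the other way (2 of 42 above 0, median -0.175, none at 0.05). Under scaling by total counts the median over all genes was -0.154 in place of -0.0244 on exons, and these 3 medians were 0.306, 0.246 and -0.305.

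No adipokine of 21 tested passed 0.05 in both analyses. *LEP*, leptin, had 2336, 1571 and 2179.8 reads at -4 wkpp and 672, 989 and 662 at 1 wkpp without overlap (1.39 ± 0.22, limma adjusted p = 0.0178 on exons and 0.0693 on whole genes) and passed 0.01 without SNEB 1 wkpp b. *WISP2* (2.52 ± 0.44) and *SERPINF1* (1.98 ± 0.50) did so as well. *RARRES2*, chemerin, had 867, 2099.8 and 1325 reads against 2001, 2553 and 2591, with overlapping groups. Genes that respond to glucocorticoids mostly had lower values at -4 wkpp: 17 of 19 tested were below 0, with a median of -0.878, 8 had non-overlapping groups in that direction (5.49% of all genes) and 2 in the other (6.41%), and *ADM* alone passed 0.05. *FKBP5* was at 2011, 681 and 1977 reads before calving and 6821, 1458 and 7861 in SNEB, and b lay within the range of the libraries at -4 wkpp. *CDKN1A* (1682, 317 and 1396 reads in SNEB) and *SGK1* (2274, 708 and 2619) were likewise lowest in b among the SNEB libraries, and both passed 0.01 without b, at -2.54 and -2.49 on the log2 scale.

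Few matrix genes passed the tests, and several varied widely among the SNEB libraries. Of 26 tested genes of collagens and their processing, *COL8A1* (2.16 ± 0.31) and *FKBP14* (1.67 ± 0.20), a folding enzyme, passed 0.05 as higher (0.83% of all genes). The median was 0.666. *COL1A1*, the main fibrillar collagen chain, had 216166, 227051 and 181871 reads at -4 wkpp and 29491, 140154 and 30889 in SNEB, and *FN1*, fibronectin, 196364, 152651 and 127324 against 26245, 84384 and 13165. Library b was closer to the libraries before calving than to a and c in *COL1A1*, and neither gene passed (2.04 ± 0.57 and 2.34 ± 0.60, limma adjusted p = 0.125 and 0.0948 on exons). Without b both passed 0.01, *COL1A1* at 2.78 (limma adjusted p = 0.000424 and 0.00171) and *FN1* at 3.07 (0.00123 and 0.00572), as did *COL1A2* (2.65) and *SPARC* (2.42) of the same lists, while *LAMB1*, a laminin chain, passed in the other direction (-1.43). *POSTN*, periostin, had 21226, 11192 and 16759.9 reads against 394, 5194 and 509.6 and passed 0.01 without b, at 5.14. Of the proteoglycans and matricellular genes, *ASPN*, asporin, was higher (1.85 ± 0.23) and *THBS1* lower at -4 wkpp at 0.05. The 14 fibroblast markers tested had a median of 1.21 and summed to 543301 to 630806 reads at -4 wkpp against 175551, 418575 and 150055 in SNEB a, b and c. How far the number of fibroblasts bears on these genes was not tested.

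Other cell types were checked with marker lists. All 16 endothelial markers were tested, all were below 0 (median -0.661), 7 had non-overlapping groups (5.49% of all genes in that direction), and none passed 0.05. Their sums were 41519 to 53029 at -4 wkpp and 63556 to 80495 in SNEB. *VWF*, for instance, had 14188, 15921 and 15749 reads against 28263, 22666 and 26227. Adipocyte markers were abundant in all 6 libraries, and their sums were 127800 to 137987 before calving and 152210 to 198710 in SNEB, where abundant members such as *FABP4* weigh most, with *PLIN1*, the coat protein of the lipid droplet, at 22430, 27735 and 20832 reads against 34861, 31506 and 40076. The median log2 fold change of the 14 adipocyte markers tested was in the other direction, at 1.18, with 9 above 0, and the groups did not overlap in 8 with higher and 3 with lower values at -4 wkpp (6.41% and 5.49% of all genes). Of these 14, *CIDEA*, *GPD1* and *PCK1* were DEGs (0.0944% of all genes), which are also listed as metabolic genes. *ADIG*, *AQP7* and *THRSP* passed 0.05, and all 6 were higher at -4 wkpp (0.83% of all genes). The marker lists of T cells, B cells, neutrophils, mast cells, red cells, nerve, smooth muscle, skeletal muscle, lymphatic vessels and mammary epithelium held no gene at 0.05. Nor did the lists of chemokines and cytokines, interferon response, heat shock, cell division, immediate early genes of ERK signalling, the circadian clock and branched-chain amino acid breakdown, while *MGST1* (3.01 ± 0.32) and *MSRB1* (1.65 ± 0.21), both of antioxidant defence, and *MMP15* (2.25 ± 0.27), a membrane-bound protease, were higher at -4 wkpp. Skeletal muscle sums were 4734 to 15705 at -4 wkpp and 5153 to 7731 in SNEB. The erythrocyte markers summed to 61 to 482 reads at -4 wkpp and 29 to 77 in SNEB.

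Reads within introns gave a second readout of the same libraries. They were taken as whole gene reads minus exonic reads, and 10491 genes were tested, of which 2 passed 0.01 (0.0191%) and 11 passed 0.05 (0.105%). All 10 DEGs were tested on introns and all 10 had higher values at -4 wkpp there. *ACACA* (2.54 ± 0.18) and *GPAM* (3.79 ± 0.31) were the 2 at 0.01, where leaving out SNEB 1 wkpp b gave 67 genes and leaving out any other library gave 0, and *FASN* (3.38) and *ACSS2* (3.19) passed 0.05. The intronic difference of *FASN* was smaller than its exonic difference of 4.98, and that of *GPD1* was 1.18 against 2.33. Of the 104 genes at 0.05, 93 were tested on introns, and 10 passed 0.05 there. All 93 had the direction found on exons, against 84.4% of the 8513 genes tested that had one direction on exons and whole genes. Whole gene reads include the intronic reads, so the choice of the 104 genes largely sets this count. *PDK4* was at -3.13 on introns, close to its -2.96 on exons, and did not pass there (limma adjusted p = 0.0582).

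Values at 16 wkpp are given beside those at 1 wkpp. In the comparison of -4 wkpp with SNEB at 16 wkpp, which shares the 3 libraries at -4 wkpp, 14 genes were DEGs (0.133%) and 84 passed 0.05 (0.795%). Without SNEB 16 wkpp c there were 31 DEGs, and without any other single library 0 to 2. Among the DEGs the largest in each direction were *LEP*, at 6.20, and *PDK4*, at -2.72. At 0.05 the largest fitted difference was that of the hair keratin *KRT83*, which had no exonic read in any library of SNEB at 16 wkpp either. *ACACA* (3.06, against 3.02 at 1 wkpp) and *PCK1* (5.37, against 5.23) were DEGs in both comparisons. *FASN* was at 3.60 against 4.98 and *SCD* at 4.31 against 6.21. *CPT1A* was at -2.06 against -1.97, while *ADM* was at -0.76 against -2.52 and *PHYH* at -0.39 against -1.79. The test of SNEB 1 wkpp against SNEB 16 wkpp itself gave no gene at 0.01 (0%) or at 0.05 (0%), with limma trend or voom, while 776 genes had an unadjusted p below 0.05 on exons. Without SNEB 1 wkpp b 46 genes passed 0.05 in both analyses, and without SNEB 16 wkpp a 1 gene did. For *LEP*, the log2 fold change of SNEB 1 wkpp over SNEB 16 wkpp was 4.81 ± 0.52 (limma adjusted p = 0.138).

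Whether the change from -4 wkpp differed between severe and moderate negative energy balance (MNEB, fed a high energy diet) is read from the direct test at 1 wkpp, since both groups share the libraries at -4 wkpp. SNEB 1 wkpp against MNEB 1 wkpp gave 0 DEGs at 0.01 in both analyses (0%) with limma trend, while 313 genes passed on exons alone, and 353 passed 0.05 in both (3.4%). Without the library MNEB 1 wkpp a, the deepest of its group, 655 genes passed 0.01 and 1975 passed 0.05 in both, and without any other single library of the 6 no gene passed either threshold in both. With voom weights 52 genes passed 0.05. None of the 8 DEGs that could be tested there passed 0.05. *FASN* was at -0.87 ± 0.46 on the log2 scale, SNEB over MNEB, *ACACA* at -0.43 ± 0.23 and *PCK1* at -0.73 ± 0.44. Of the 104 genes, 89 were tested and 5 passed 0.05 (5.62%, against 3.4% of all genes), namely *PHYH* (2.31 ± 0.32), *ASPN* (2.19 ± 0.27), *ACSM1* (1.27 ± 0.24) and *PRNP* (1.23 ± 0.23), which were higher in SNEB, and *MLXIPL* (-1.84 ± 0.32), which was lower. The 104 genes were chosen on the same SNEB 1 wkpp libraries, so the 2 shares are not like for like. Among genes that passed 0.05 with a mean of at least 50 reads and no overlap, the largest differences were *CPA3*, a mast cell protease, at 4.07, and *COL13A1*, at -3.38. The MNEB 1 wkpp libraries were shallower, at 2030847 to 7026491 exonic reads, and held spike-in RNA at 4.8 to 40.5% of their exonic reads against 0.66 to 2.2% in SNEB, and the part of this in the differences was not tested.

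**Figure D5:**
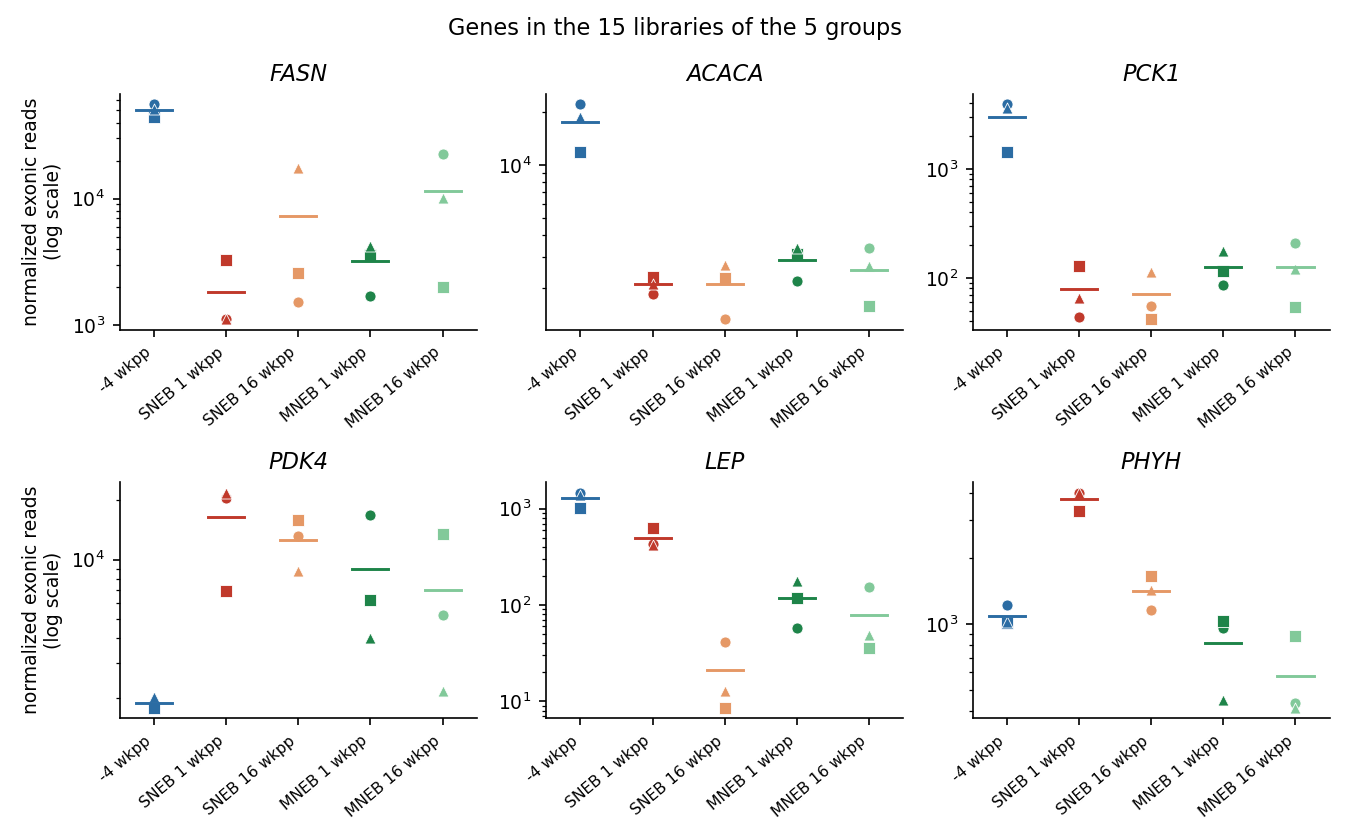
Normalized exonic reads (log axes) of 6 genes in the 3 libraries of each of the 5 groups, scaled together over all 15 libraries, with bars at the group means. *ACACA* and *PCK1* are high at -4 wkpp and low in the other 4 groups, *PDK4* is lowest at -4 wkpp, *LEP* has its lowest mean in SNEB at 16 wkpp, and *PHYH* is highest in SNEB at 1 wkpp.

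Of the 22 genes that the study put forward as biomarker candidates for SNEB between -4 and 1 wkpp, all were tested, none was a DEG, 2 were higher (*PFKFB1* and *SLIT2*) and 2 lower (*PHYH* and *THBS1*) at -4 wkpp at 0.05 (0.83% and 0.151% of all genes), and in all 22 the groups did not overlap, 6 with higher and 16 with lower values at -4 wkpp (6.41% and 5.49% of all genes). The study chose them on these samples, so their counts are not independent evidence. It called genes with DESeq2, a count model, at an adjusted p below 0.01 in both analyses, while limma on the log scale was used here. A candidate that does not pass here was thus held to a different test of the same libraries. Of the genes that the study placed in clusters by RT-qPCR, a part of those it measured, 11 were looked up (*ACADPS* was not), 5 could be tested in both analyses and none passed 0.05. The median log2 fold change of these 5 was 2.03. In 3 of them, *POSTN* and *SERPINF1* included, the groups did not overlap and values were higher at -4 wkpp. None was without overlap in the other direction. The genes tested made up a whole cluster of the study, which it described as higher after calving than before it in SNEB cows. The median here was thus in the opposite direction, and the reason was not tested. In the list of the circadian clock, *BHLHE40*, a clock-linked repressor, had 1614, 1918 and 1269 reads at -4 wkpp and 465, 1079.7 and 358 in SNEB at 1 wkpp and did not pass (1.48 ± 0.38, limma adjusted p = 0.0913 and 0.222), but passed 0.05 without SNEB 1 wkpp b (adjusted p = 0.00133 and 0.0127).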

How the data were processed

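Total RNA of subcutaneous fat was depleted of ribosomal RNA and sequenced as stranded single reads. Per the labels and the study's methods, the authors trimmed reads with cutadapt 1.3, aligned them with TopHat2 to bosTau8, counted them per gene with htseq-count, on exons and on entire genes, and normalized the 6 libraries of each comparison with DESeq2. The deposited tables give, per gene, the mean normalized count over the 6 libraries. They also hold the authors' log2 fold changes, standard errors, Wald scores, p-values and adjusted p-values, which were not used here.

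Whole reads per library were recovered from the deposited means. A mean printed to about 15 digits is a sum of 6 whole counts, each divided by its size factor, and the 15 counts of a gene were solved from the 6 tables by lattice reduction. This gave 13893 of 13896 genes (not *COL3A1*, *FBN1* and *RN7SL1*), with a largest relative residual of 6.4e-15. Size factors computed from these counts deviated by at most 0.0616% from the weights, and 88 of 92 spike-ins came out with equal counts in both analyses. Groups follow from which tables share a library, and no library was tied to a sample, so the letters a, b and c are names only. In 344 genes some library had more exonic than whole gene reads, and these were left out of the test on introns. Of them, 322 had no whole gene read in the 6 libraries and could not be DEGs. Where genes overlap, reads can be assigned differently to exons and entire genes.

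Counts were scaled by the median of ratios and tested as log2(value + 0.5) with limma 3.58.1 (trend, R 4.3.3) on genes with a mean of at least 10, with Benjamini-Hochberg adjustment over all genes tested and no covariate. The recovered reads were not tested with a count model here. With 3 libraries per group an exact permutation test of one gene could not go below p = 0.1. Nothing in the labels gives the origin of the 3 libraries beyond cows of a group, and p-values measure the spread between these libraries. The recovery and the test were checked on simulated data. Named genes were the 12 largest DEGs of each direction with a mean of at least 50 and no overlap, members of 43 lists, genes the study names and the largest difference of each further comparison, and by the same rule at 0.05. The comparison, lists and tests were chosen with earlier results of these data known. Alternatives were other scaling, filters, pseudocount 2, voom, all 15 libraries in a fit, other thresholds and leaving out each library.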

Additional observations from a re-analysis of the deposited data

Results flagged for a closer look

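At 1 wkpp, 5 of the genes that passed 0.05 between -4 wkpp and SNEB also passed 0.05 in the direct test of SNEB over MNEB (5.62% of the 89 tested, against 3.4% of all genes). Both tests use the same 3 SNEB 1 wkpp libraries, which by itself can raise the share among genes chosen in the first. How far it does was not worked out. The differences on the log2 scale were 2.31 for *PHYH*, 2.19 for *ASPN*, 1.27 for *ACSM1*, 1.23 for *PRNP* and -1.84 for *MLXIPL* (limma in both analyses, 3 libraries per group). Their limma adjusted p on exons was 0.00564 to 0.0113, and no gene passed 0.01 in both analyses. None of the 5 passed 0.05 in both analyses when MNEB 1 wkpp b or c, or any SNEB library, was left out, since no gene did. The MNEB libraries held 2030847 to 7026491 exonic reads and spike-in RNA at 4.8 to 40.5% of them, and the part of this in the differences was not tested.

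The spike-in RNAs, which no comparison used, differed between the groups. Of 54 with at least 100 reads in the 6 libraries, 13 had a log2 ratio of -4 wkpp over SNEB 1 wkpp of 1.42 to 2.36, with a median of 1.99, and the other 41 lay between -1.18 and 0.47, with a median of -0.57. They were scaled with the size factors of the genes. The sample titles carry a mark that differs between the 2 groups, m1 for -4 wkpp and m2 for SNEB 1 wkpp, whose meaning is not given in the sources used here.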

How the results depend on the processing

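Directions held throughout for the DEGs: in 160 pairs of a DEG and an alternative setting, no sign changed, 97 pairs kept the call and 63 lost it, and the cause was not tested. The settings of exons alone, whole genes alone and the threshold of 0.05 keep the call and sign of a DEG by definition. A part of the 97 pairs was therefore fixed in advance. The count of 10 DEGs was 17 with every gene that had a read, 4 with voom weights, 74 on exons alone and 104 at the threshold of 0.05, and ran from 0 to 183 when one library was left out, with the 183 without SNEB 1 wkpp b. All 15 libraries in one fit gave 14 DEGs, 6 of them among the 10. At 0.05 the 104 genes became 51 in that fit, 44 of them among the 104, and 67 with voom weights, 64 of them among the 104. With a library left out they became 8 to 492. The exon analysis alone (74 genes) gave 220 at 0.05 and 0 to 407 with a library left out. The whole gene analysis alone (10 genes) gave 17 with every gene that had a read, 4 with voom weights, 113 at 0.05 and 0 to 197 with a library left out. Of the DEGs, 9 were members of lists. This number was 15 with every gene that had a read, 4 with voom weights, 41 on exons alone, 54 at 0.05 and 0 to 71 with a library left out. Intronic calls went from 2 to between 0 and 67. The comparison with SNEB at 16 wkpp (14 DEGs) gave 1 with every gene that had a read, 8 with voom weights, 84 at 0.05 and 0 to 31 with a library left out, and SNEB over MNEB at 1 wkpp, with 0 at 0.01, gave 0 to 655 at 0.01 with a library left out. At 0.05 its 353 genes became 52 with voom weights, 1975 without MNEB 1 wkpp a and 0 without any other single library. SNEB at 1 against 16 wkpp gave 0 at 0.01 in every setting run. Signs changed only in *DSP* (0.14, 0.01 and 0.17 without -4 wkpp b, SNEB 1 wkpp a and SNEB 1 wkpp b, in a range of -0.50 to 0.17) and *PNPLA2* (0.03 without SNEB 1 wkpp a, in a range of -0.27 to 0.03), neither of them called, among 109 named genes. Of 602 medians of lists under alternatives, 37 moved by more than the spread between libraries.

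No paired analysis was possible because the labels give the groups no shared replicate numbers and the libraries could not be tied to cows, although biopsies were taken of each cow at every time. Depth was 8273138 to 14344675 exonic reads, so genes with few reads in SNEB (*BDH1*, the hair keratins) have folds that rest on single reads.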

Other observations

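Of the 104 genes that passed 0.05 in both analyses, some belonged to pathways for which no list had been drawn up, and those below were chosen after their values were seen. Being picked, they stand for no group of genes, and 88 of the 104 were higher at -4 wkpp in any case. *GPT2*, the mitochondrial alanine aminotransferase, had 1899, 2101 and 1617 normalized exonic reads at -4 wkpp and 117, 407 and 138 in SNEB at 1 wkpp (3.31 ± 0.42 on the log2 scale). *TDH*, threonine dehydrogenase, had 303, 205 and 333 against 27.4, 22.9 and 20.5 reads (3.52 ± 0.29), and its SNEB libraries were close together, b included. *ALDH1L1*, of folate metabolism, had 571, 309.6 and 695 against 11.1, 47.5 and 20.5 reads (4.45 ± 0.52). *ABAT*, which degrades GABA, was at 2.56 ± 0.32, *MAOB*, a monoamine oxidase, at 2.37 ± 0.42, and *QPRT*, of NAD synthesis, at 1.84 ± 0.25. *PCYT2*, which activates phosphoethanolamine for phospholipid synthesis, had 893, 813 and 864 reads against 250.3, 217 and 241 (1.86 ± 0.16).

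*NNAT*, the imprinted neuronatin, had 5703, 2562 and 3653 reads at -4 wkpp and 36, 407 and 85.3 in SNEB at 1 wkpp (5.12 ± 0.75). *C1QTNF3*, a secreted relative of adiponectin, had 1793, 1024 and 1766 reads against 58.3, 209 and 61.6 (4.02 ± 0.47). Both were highest in b among the SNEB libraries, still well below the libraries before calving. *MID1IP1*, a partner of acetyl-CoA carboxylase and a relative of *THRSP*, had 3049, 2931 and 2262 reads against 491, 487 and 319 (2.68 ± 0.22).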
